A study of Mus musculus with 12 samples.

Results

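Monoamine oxidases A and B, encoded by *Maoa* and *Maob*, are the enzymes that the drug pargyline blocks, and they were followed here together with 7 genes that take up monoamines, oxidise other amines or clear the aldehydes that amine oxidation yields. The 9 genes were *Maoa*, *Maob*, *Aoc3*, *Aldh2*, *Aldh1a1*, *Akr1b3*, *Slc22a3*, *Slc29a4* and *Slc6a4*, of 22911 genes with a RefSeq symbol on the array. They were chosen by symbol for their role in this pathway, and all 16 array probes that carry one of these symbols were used. The heart muscle mRNA came from 12 mice in 4 groups of 3, all male, of the strain C57BL6/J and aged 5 months, with 1 heart per array. No group carries a genetic alteration that the labels name. Control mice (C) had no streptozotocin and received vehicle. Mice of the group C + P received pargyline, an irreversible inhibitor of both oxidases, at 50 mg/kg per day for 12 weeks. Diabetic mice (D) had received streptozotocin, which kills the insulin-producing cells of the pancreas, at 50 mg/kg per day for 5 days, and counted as diabetic at a blood glucose of 17 mM or more. Mice of the group D + P received streptozotocin and then pargyline at the same doses. Pargyline was given to the whole animal and acts on the enzymes, so these arrays give the transcripts of its targets and not their activity.

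Both oxidases sit in the outer mitochondrial membrane, carry a flavin cofactor and turn serotonin, noradrenaline, dopamine and other amines into an aldehyde, ammonia and hydrogen peroxide. Monoamines reach them through membrane transporters, among them the serotonin transporter *Slc6a4* and the low-affinity, high-capacity carriers *Slc22a3* (organic cation transporter 3) and *Slc29a4* (plasma membrane monoamine transporter). The aldehydes are oxidised by aldehyde dehydrogenases or reduced by aldo-keto reductases. In the heart, the hydrogen peroxide made by these oxidases is a known source of mitochondrial oxidative stress.

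Each probe is a DNA oligonucleotide of 60 bases whose signal stands for the transcript that binds it. Stretches of 30 bases are printed for both oxidases, for *Slc22a3* and *Slc29a4*, which lay lower in each diabetic group than in its control group, and for *Aoc3*, whose probes went opposite ways. The third *Aldh2* probe is shown because it holds a polyadenylation signal, AATAAA, as the *Slc29a4* probe holds the variant ATTAAA. Capitals mark that signal, which was searched on the printed strand only and which 13.4% of the 56605 probes hold.
Maoa: cttagtagagttgtgggtccagaatggtgc
Maob probe 1: cttgcatcttctagttagtctgcttccatt
Maob probe 2: acaaagcagattgccacgctctttgtgaac
Slc22a3: ggtgcctgtgactgagagtccaaagcacag
Slc29a4: accgcactggccATTAAAtatggcagagac
Aoc3 probe 1: gaaaagctaaaaatgagtaggcgataagtg
Aoc3 probe 2: gatacctctcccccaagttcagttccagac
Aldh2 probe 3: gagcAATAAAaatcagcagatcaaagccac

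In the mm9 coordinates of the files, the *Maoa* probe lies on the plus strand at chrX:16263318-16263377, and *Maob* probe 1 on the minus strand at chrX:16286427-16286486, 23.05 kb away. The genes are next to each other among the protein-coding genes of the RefSeq table and run towards each other. *Maob* probe 2 lies at chrX:16313176-16313235, nearer the start of the gene. The *Slc22a3* probe lies at chr17:12613499-12613558 and the *Slc29a4* probe at chr5:143198384-143198443. The files give each probe's position along a transcript, 2332 for *Maob* probe 1 and 571 for its probe 2, but not whether it lies in coding sequence or in an untranslated part. A stop codon stands in all 3 forward frames of *Maob* probe 1, the *Aldh1a1* probe and *Aoc3* probe 1, as in 20.3% of all probes, so these cannot lie wholly in coding sequence. Each of the other probes holds at least 1 open frame.

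The number of spots well above background, a flag of the scanning software, was lowest, 23556, for D replicate 1 and highest, 29231, for C replicate 2, out of 59305 spots on an array. No spot was saturated (0 on every array). Slide and scan cannot be told apart from pargyline, because vehicle-treated mice were on 1 slide, scanned together, and pargyline-treated mice on another. Position on the slide and diabetes cannot be told apart either, as row 1 held non-diabetic mice and row 2 diabetic ones. All 6 cardiomyocyte markers were well above background on 12 of 12 arrays, with a summed log2 signal of 19.15 to 19.48. Precision is limited by the small number of arrays, and the p of a two-sided exact permutation test between any pair of groups is at least 0.1.

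Probes were compared as log2 signal after quantile normalisation, with limma over all 12 arrays and a threshold of 0.05 on the p-value adjusted by Benjamini-Hochberg over 30859 tested probes. The brightest tested probe stands for a gene. *Slc6a4* had no tested probe, which left 8 of 9 genes. None of the 8 passed the threshold in any of the 7 contrasts, and few probes did on the whole array. For D against C, 0.00648% of tested probes passed, for D + P against C + P 0.0454%, and for diabetes averaged over pargyline, the mean of both, 0.107%. For C + P against C it was 0.0324%, for D + P against D 0% and for pargyline averaged over diabetes 0.0551%. The interaction, in which the D against C difference is subtracted from that of D + P against C + P, gave 0.00648%.

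For diabetes averaged over pargyline 3 of the 8 genes were higher and 5 lower, with a median log2 difference of -0.21, beside -0.01 over all tested probes. For pargyline averaged over diabetes it was also 3 higher and 5 lower, with a median of -0.05 beside 0.00.

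At an unadjusted p under 0.05, the diabetes contrasts named 3 genes, *Maob*, *Slc22a3* and *Slc29a4*. For diabetes averaged over pargyline, these 3 of 8 stood beside 11.4% of all tested probes. They were also the 3 of 8 in D + P against C + P, beside 7.46%, while D against C had only *Slc29a4*, beside 10.8%. With normexp (another background correction) 0 of 8 met it in D against C, and *Slc29a4*, near background, missed it in D + P against C + P, as it did there with values not positive and significant set to missing. A filter on probes well above background left *Slc29a4* untested. *Maob* missed it in D + P against C + P with 75th percentile scaling, array weights, probes averaged, the methods' t-test, only the 2 groups fitted, the slide column as a random block or the replicate block. With each array left out in turn, *Slc22a3* and *Slc29a4* met it in the averaged contrast in 12 of 12 fits and *Maob* in 2, those without C + P replicate 2 or D + P replicate 1. *Maob* also missed it with the replicate block and with its probes averaged, and *Aoc3* met it without D + P replicate 3. *Aldh1a1* met it in the averaged contrast with array weights, and *Aoc3* in D against C with the methods' t-test. In D + P against C + P *Slc22a3* met it in 12 of 12 fits, *Slc29a4* in all but that without D + P replicate 3, where *Aoc3* did, and *Maob* in the same 2 as above. Without D + P replicate 1 *Maoa* met it there too. Under pargyline averaged over diabetes the same 3 names met it, beside 10.2%. In C + P against C it was *Maob* alone, beside 4.43%, and 0 of 8 without C + P replicate 1, with normexp or with probes averaged. With the methods' t-test or only the 2 groups fitted, *Slc29a4*, near background, met it there too. In D + P against D it was *Slc22a3* and *Slc29a4*, beside 13.3%. There *Slc29a4* met it in 2 of the 12 fits with 1 array left out, those without D replicate 3 or D + P replicate 3, and *Slc22a3* in the other 10. In the averaged pargyline contrast *Maob* met it in 12 of 12 fits with 1 array left out but not with probes averaged. *Slc29a4* missed it without C replicate 1, D replicate 1 or D + P replicate 1, and *Slc22a3* without C replicate 2 or 3, C + P replicate 3, D replicate 2 or 3 or D + P replicate 3, while *Aoc3* met it without D + P replicate 2. With normexp 0 of 8 met it in D + P against D or in the averaged pargyline contrast, and in D + P against D 0 of 8 did so with only the 2 groups fitted. *Slc22a3* missed it in the averaged contrast with 75th percentile scaling, a robust prior with trend for the spread or the replicate block, and in D + P against D with 75th percentile scaling. *Slc29a4* missed it in the averaged contrast with the robust prior, and in D + P against D with array weights, the robust prior, the methods' t-test or the replicate block. For the interaction 0 of 8 met it, beside 7.03%. The groups C and D shared no values for 4 of 8 genes, against 22.3% of tested probes, and C + P and D + P shared none for 2 of 8, against 13.9%.

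**Figure D1:**
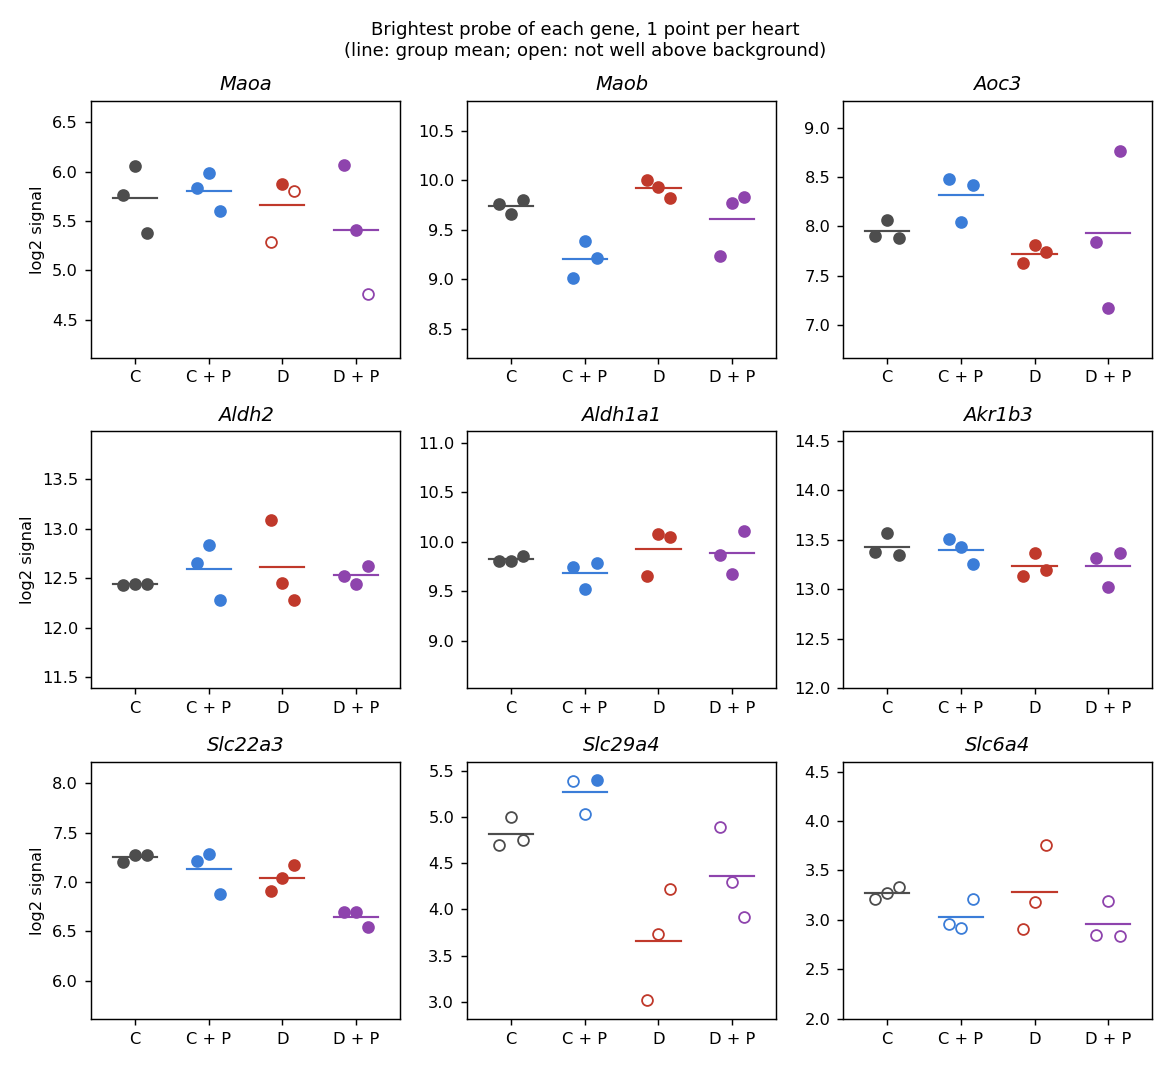
Log2 signal of the brightest probe of each of the 9 genes (y axis) in the 4 groups (x axis), with 1 point per heart, a line at the group mean and open points where the probe was not well above background. *Slc6a4* is shown by its probe 1. *Slc22a3* and *Slc29a4* have every D heart below the C hearts and every D + P heart below the C + P hearts, and all *Slc6a4* points are open.

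*Maoa* transcript was dim and showed no difference beyond its spread. The log2 signal of its 1 probe was 5.76, 6.06 and 5.38 in the 3 C hearts and 5.84, 5.99 and 5.60 in the C + P hearts. It was 5.29, 5.88 and 5.81 in the D hearts and 6.07, 5.405 and 4.76 in the D + P hearts. All 4 groups overlapped, and D + P held both the highest and the lowest value of the 12. The probe was well above background on all 6 arrays of non-diabetic mice, but with diabetes on 1 of 3 arrays in D and 2 of 3 in D + P. These counts depend on the array as well as on the signal. D replicate 3, at 5.81, was not flagged, while C replicate 3, at 5.38, was. The lowest signal so flagged for any probe was 5.84 on the first of these arrays and 4.95 on the second. Diabetes averaged over pargyline gave a log2 difference of -0.24, with a 95% interval of -0.73 to 0.26 (limma adjusted p = 0.718). For pargyline averaged over diabetes it was -0.09, with an interval of -0.58 to 0.41 (limma adjusted p = 0.919). An exact permutation test of the diabetes difference within each slide, two-sided over 400 arrangements with a smallest possible p of 0.005, gave p = 0.335.

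*Maob*, by its brighter probe, had its lowest mean in control hearts given pargyline. The C hearts read 9.76, 9.66 and 9.80 and the C + P hearts 9.01, 9.39 and 9.22, so that every C + P heart lay below every C heart. The D hearts read 10.0015, 9.93 and 9.82, each above every C heart, and the D + P hearts 9.23, 9.77 and 9.83. The highest D + P heart reached into the D range, while D + P replicate 1 lay among the C + P hearts. On 12 of 12 arrays the probe was well above background.

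For C + P against C the log2 difference of *Maob* was -0.54 with an SE of 0.18 and a 95% interval of -0.94 to -0.13, but the limma adjusted p was 1.00 and the slide changes with the drug. In D + P against D it was -0.31 (interval -0.71 to 0.10, limma adjusted p = 0.478). Diabetes averaged over pargyline, in which an equal shift of a whole slide cancels, gave 0.29, a 1.22-fold higher level, with an SE of 0.13 and an interval of 0.01 to 0.58 (limma adjusted p = 0.428). The difference was 0.18 between D and C and 0.41 between D + P and C + P, and the exact permutation test gave p = 0.025. The interaction was 0.23, with an interval of -0.34 to 0.80 (limma adjusted p = 0.859).

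The second *Maob* probe, which was dimmer, did not follow the first in diabetes. It averaged 6.29 ± 0.25 for C hearts, 6.03 ± 0.31 for C + P hearts, 6.11 ± 0.41 for D hearts and 6.14 ± 0.32 for D + P hearts (SD, n = 3). It was well above background on 3 of 3 arrays in C but on 2 of 3 in each of C + P, D and D + P. Its diabetes difference was -0.03, with an interval of -0.44 to 0.37, and its pargyline difference was -0.12, with an interval of -0.52 to 0.29. With both probes averaged, the diabetes difference of *Maob* dropped to 0.13 and its exact permutation p became 0.39. The summed signal of 6 fibroblast markers was lowest in the group in which *Maob* was lowest, at log2 15.37 to 15.45 in C + P, against 15.45 to 15.61 in C, 15.57 to 15.64 in D and 15.55 to 15.77 in D + P. The fibroblast markers did not share a direction, as 3 of the 6 were higher for pargyline averaged over diabetes. The sum of 4 sympathetic neuron markers was also lowest in C + P, at 9.28 to 9.57 against 9.59 to 9.91 in the other groups. Of these 4, *Slc6a2* and *Npy* were well above background on no array. The part of these cells in the *Maob* values was not tested. In whole tissue, fewer cells of a type and less RNA per cell cannot be told apart.

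*Aoc3* encodes a copper-containing amine oxidase of the cell surface, found in vessel walls and fat, that oxidises primary amines and carries no flavin. Probe 1 read 7.91, 8.07 and 7.88 in C and 8.48, 8.04 and 8.42 in C + P. The D hearts read 7.63, 7.81 and 7.74 and the D + P hearts 7.84, 7.18 and 8.76. The D hearts lay below the C hearts, while the D + P hearts spanned more than all other groups together. Its diabetes difference was -0.31, with an interval of -0.81 to 0.20 (limma adjusted p = 0.638, exact permutation p = 0.23). Probe 2 gave 0.02 for diabetes, with an interval of -0.27 to 0.31. For pargyline the probes had opposite signs, 0.28 for probe 1 (interval -0.22 to 0.78) and -0.37 for probe 2 (interval -0.66 to -0.08, limma adjusted p = 0.396). The summed signal of 5 smooth muscle markers was 13.86 to 13.92 in D against 13.996 to 14.24 in C. It was 13.76 to 13.998 in D + P and 13.91 to 14.23 in C + P, and its part in the *Aoc3* values was not tested. Of 6 adipocyte markers, *Adipoq*, *Plin1*, *Cidec* and *Retn* were well above background on no array.

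**Figure D2:**
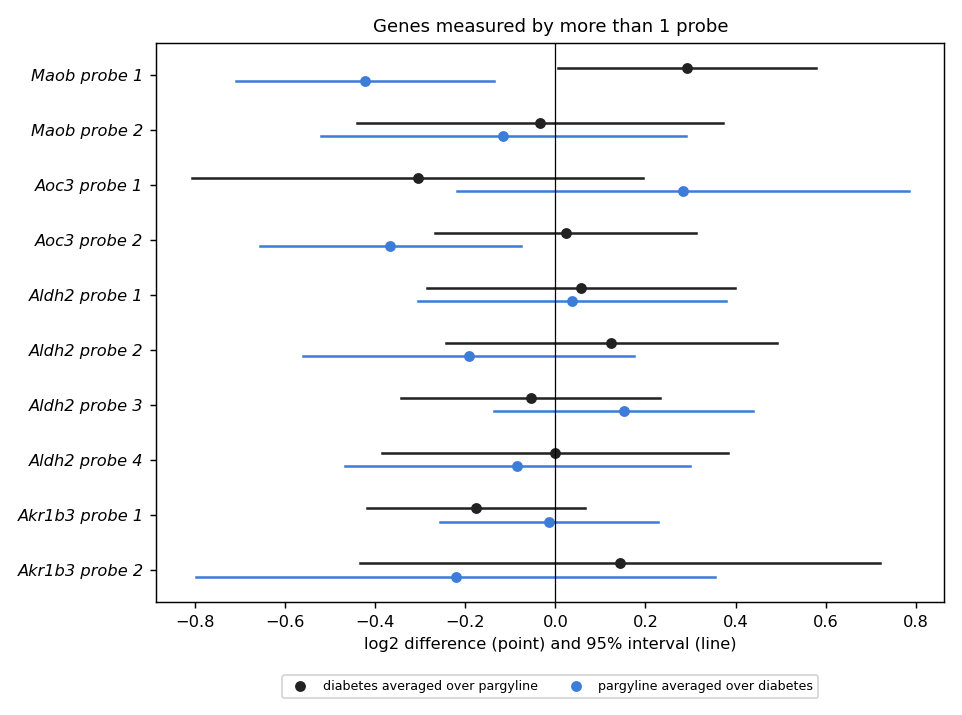
Log2 difference (x axis; points) with its 95% interval (lines) for each probe (y axis) of the 4 genes measured by more than 1 tested probe, for diabetes averaged over pargyline and for pargyline averaged over diabetes. *Maob* probe 1 lies at 0.29 for diabetes where probe 2 lies at -0.03, and the *Aoc3* probes lie on opposite sides of 0 for pargyline.

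The 3 genes of aldehyde handling were well above background on every array by their brightest probes, and their diabetes differences were small. *Aldh2*, the mitochondrial aldehyde dehydrogenase that handles ethanol-derived acetaldehyde and aldehydes from lipid peroxidation, read 12.43, 12.44 and 12.44 in C and 12.66, 12.83 and 12.28 in C + P. It read 13.10, 12.45 and 12.28 in D and 12.52, 12.45 and 12.63 in D + P. The C hearts had an SD of 0.0051, whereas D replicate 1 stood far above the other D hearts. Diabetes averaged over pargyline gave 0.06, with an interval of -0.29 to 0.40 (limma adjusted p = 0.915), which was -0.07 without D replicate 1. The other 3 probes of *Aldh2* gave 0.12, -0.05 and -0.0003, so the 4 probes did not share a direction. Pargyline averaged over diabetes gave 0.04 by the brightest probe, with an interval of -0.31 to 0.38.

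*Aldh1a1*, a cytosolic dehydrogenase that also makes retinoic acid from retinal, read 9.80, 9.81 and 9.86 in C and 9.75, 9.52 and 9.79 in C + P. It read 9.65, 10.08 and 10.05 in D and 9.87, 9.67 and 10.11 in D + P. Every C + P heart lay below every C heart, as for *Maob*. With *Slc29a4*, which lay wholly higher in C + P, 3 of 8 genes had groups that shared no values in this contrast, against 15.4% of all tested probes. The diabetes difference was 0.15, with an interval of -0.12 to 0.42 (limma adjusted p = 0.67), and the pargyline difference was -0.09, with an interval of -0.36 to 0.18.

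*Akr1b3*, mouse aldose reductase, reduces glucose to sorbitol in the polyol pathway and also reduces aldehydes of monoamine and lipid origin. It read 13.37, 13.57 and 13.34 in C and 13.51, 13.43 and 13.26 in C + P. The D hearts read 13.13, 13.37 and 13.20 and the D + P hearts 13.32, 13.02 and 13.37. Both diabetic groups had lower means than their controls but overlapped them. The diabetes difference was -0.18, with an interval of -0.42 to 0.07 (limma adjusted p = 0.572, exact permutation p = 0.055). It was -0.10 (exact permutation p = 0.45) with 75th percentile scaling and -0.02 (exact permutation p = 0.935) with its probes averaged. A second, dimmer probe gave 0.14, with an interval of -0.43 to 0.72. For pargyline the brightest probe gave -0.01, with an interval of -0.26 to 0.23.

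**Figure D3:**
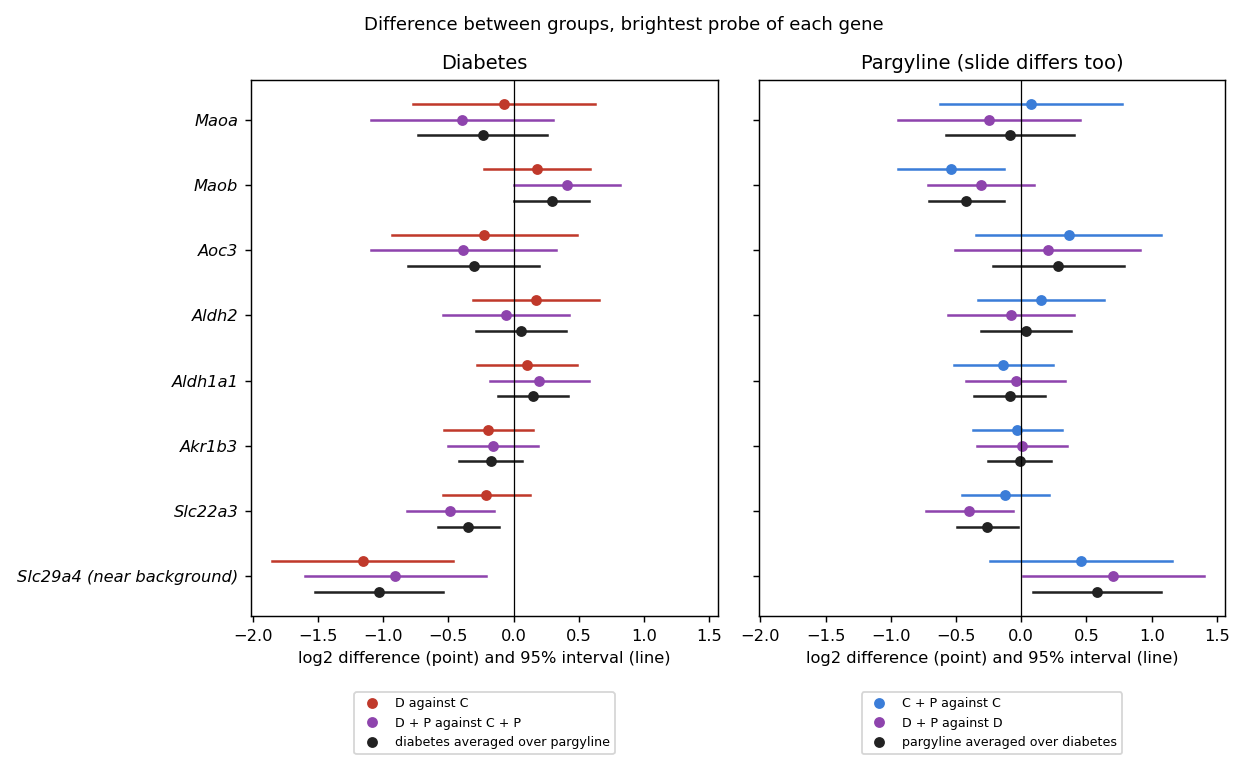
Log2 difference (x axis; points) with its 95% interval (lines) for the brightest probe of each of the 8 tested genes (y axis), for diabetes on the left and for pargyline, with which the slide also changes, on the right. *Slc22a3* at -0.35 lies below 0 with its interval for diabetes averaged over pargyline, and *Maob* lies above 0 for diabetes and below it for pargyline. *Slc29a4* was well above background on 1 of 12 arrays, so its points show measured signal and no fold.

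Of the transporters, *Slc22a3* and *Slc29a4* lay lower in diabetic hearts on both slides. In all, 2 of 8 genes had D wholly below C and D + P wholly below C + P, against 1.29% of tested probes. *Slc22a3* read 7.20, 7.28 and 7.27 in C and 6.91, 7.04 and 7.17 in D, so the groups lay apart by little. With pargyline it read 7.21, 7.29 and 6.88 in C + P and 6.69, 6.69 and 6.54 in D + P. The D + P hearts were the lowest of the 12 and also lay wholly below the D hearts. In either direction, D and D + P shared no values for 1 of 8 genes, against 17% of tested probes. The *Slc22a3* probe was well above background on all arrays.

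The log2 difference of *Slc22a3* was -0.21 between D and C, with an interval of -0.54 to 0.12, and -0.48 between D + P and C + P, with an interval of -0.82 to -0.15. Averaged over pargyline it was -0.35 with an SE of 0.11 and an interval of -0.58 to -0.11, a level of 0.786 times that without diabetes. The limma adjusted p was 0.273, and the exact permutation p was 0.005, the smallest that this design allows. The latter restates that each diabetic group lay wholly below its control group. For D + P against D the difference was -0.40 (interval -0.73 to -0.06, limma adjusted p = 0.299), and for C + P against C it was -0.12 (interval -0.45 to 0.21). The interaction was -0.28, with an interval of -0.75 to 0.20 (limma adjusted p = 0.787).

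*Slc29a4* was measured at a signal near background. Only C + P replicate 3, 1 array of 12, had its probe well above background. The C hearts read 4.69, 5.00 and 4.75 and the D hearts 3.02, 3.74 and 4.22. With pargyline the C + P hearts read 5.39, 5.03 and 5.39 and the D + P hearts 4.89, 4.29 and 3.91. Each diabetic group lay wholly below its control group, and the lowest of all hearts was D replicate 1, the array with the fewest spots well above background.

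No fold is given for *Slc29a4*, since 0 of 3 arrays in C, D and D + P and 1 of 3 in C + P had it well above background. The means of the measured log2 signal, which are therefore not levels, were 4.81 in C, 3.66 in D, 5.27 in C + P and 4.36 in D + P. The test on this signal missed the threshold for diabetes averaged over pargyline (limma adjusted p = 0.141). The exact permutation p was 0.005, the smallest possible, and restates that each diabetic group lay wholly below its control group. The limma adjusted p was 0.313 for D against C, 0.554 for D + P against C + P, 1.00 for C + P against C and 0.366 for D + P against D. The sign of the interaction turned without D replicate 1 and without D + P replicate 1.

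The serotonin transporter *Slc6a4* was not detected. Both of its probes were well above background on 0 of 12 arrays and positive and significant on 0 of 12. Probe 1 ranged from log2 2.84 to 3.76 and probe 2 from 2.84 to 3.63 over all hearts. The gene was therefore not tested, and its values say only that any signal was not distinguishable from background here. The transporter is carried by platelets and by serotonin neurons. Of 5 platelet markers, *Itga2b* and *Gp1bb* were also well above background on no array. The sum over the 5, in log2, was 11.36 to 11.56 in C and 11.52 to 11.79 in C + P, against 11.05 to 11.28 in D and 10.96 to 11.24 in D + P. Like *Slc22a3* and *Slc29a4*, this platelet sum was thus lower with diabetes on both slides, but for pargyline it did not follow both genes. Without diabetes, its mean rose with pargyline from 11.48 to 11.70. *Slc29a4* signal rose too, but *Slc22a3* fell from 7.25 to 7.13. With diabetes, its mean fell with pargyline from 11.17 to 11.07. *Slc22a3* fell too, but *Slc29a4* signal rose from 3.66 to 4.36. Of the 3 tested platelet markers 1, *Ppbp*, was lower past the threshold for diabetes averaged over pargyline (limma adjusted p = 0.0418). *Ppbp* averaged 7.45 in C, 6.40 in D, 8.21 in C + P and 5.03 in D + P and exceeded the background flag on just 2 of 3 arrays in D and 1 of 3 in D + P, so no fold is given. The gap between D + P and C + P was the wider, and the interaction missed the threshold (limma adjusted p = 0.585). Of the 5 markers, just 1, *Pf4*, was well above background on all arrays. Its part in the transporter values was not tested. The sum of the 5 macrophage markers found was 12.11 to 12.56 in C and 12.20 to 12.68 in C + P, against 11.74 to 12.18 in D and 11.83 to 12.15 in D + P, also not tested as a part of these values.

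Other genes of the pathway were followed in 9 lists, with the brightest tested probe of each gene. No gene of any list passed the threshold in any contrast. The counts and medians given for diabetes and for pargyline are those of the contrasts averaged over the other factor, and counts at an unadjusted p within single pairs of groups are not given. Over all tested probes, an unadjusted p under 0.05 was met by 11.4% for diabetes and by 10.2% for pargyline, in either direction. Among 8 tested of 12 other amine transporters, 3 had an unadjusted p under 0.05 for diabetes averaged over pargyline, 2 lower and 1 higher, and the median difference was -0.04 beside -0.01 over all tested probes. *Slc22a4*, a carrier of ergothioneine, gave -0.66 (limma adjusted p = 0.406) and was well above background on 1 of 3 D arrays. The nucleoside transporter *Slc29a2*, a relative of *Slc29a4*, gave 0.30 (limma adjusted p = 0.391), and its interaction of 0.59 had the smallest p of the list (limma adjusted p = 0.694). The vesicular monoamine transporter *Slc18a2* was well above background on 2 of 12 arrays, so no fold is given. The noradrenaline and dopamine transporters *Slc6a2* and *Slc6a3*, with *Slc18a1* and *Slc22a2*, had no tested probe.

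Of 11 tested other enzymes of monoamine and polyamine breakdown, 2 were lower at an unadjusted p under 0.05 in diabetes, beside 11.4% of all tested probes. The median over the list was -0.03. The 2 genes were *Aoc2*, a relative of *Aoc3*, at -0.43, and spermine oxidase, *Smox*, which like the monoamine oxidases makes hydrogen peroxide, at -0.33. The interaction of *Aoc2* was 0.78 (limma adjusted p = 0.709). For pargyline 2 genes were higher at an unadjusted p under 0.05, beside 10.2% of all tested probes. They were *Sat1*, which acetylates polyamines, at 0.29 and *Smox* at 0.33, with a list median of 0.07.

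Among 16 tested other aldehyde dehydrogenases 0 had an unadjusted p under 0.05 for diabetes or for pargyline, and the medians were -0.01 and 0.02. *Aldh3a1* gave 0.29, *Aldh1l2*, a mitochondrial enzyme of folate metabolism, 0.43, and *Aldh1a2*, which makes retinoic acid, 0.19 for diabetes. Of 12 arrays, 0 had *Aldh8a1* and 1 had *Aldh1a3* well above background, so no folds are given. Of 13 tested aldo-keto reductases and alcohol dehydrogenases, 0 met it for diabetes averaged over pargyline, beside 11.4%, and 1 for pargyline averaged over diabetes, beside 10.2%. The medians were 0.06 and -0.10. *Sord*, sorbitol dehydrogenase, which follows aldose reductase in the polyol pathway, gave 0.27 for diabetes. The 1 gene for pargyline was *Adh4*, and 0 of 12 arrays had its probe well above background. *Akr1c12* was so on 2 of 12. The interaction of *Adh1* was 0.85 (limma adjusted p = 0.709).

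In the synthesis of monoamines, 1 of 10 tested genes met an unadjusted p under 0.05 for diabetes, beside 11.4% of all tested probes. *Ddc*, which makes dopamine and serotonin from their precursors, gave 0.49 (limma adjusted p = 0.34). *Dbh*, which makes noradrenaline in sympathetic nerves, gave 0.21 with an interaction of 0.38, and *Gch1*, of the tetrahydrobiopterin cofactor, -0.19. *Hdc*, which makes histamine, gave 0.62 for pargyline. The list median was -0.02 for diabetes and -0.16 for pargyline, beside -0.01 and 0.00 over all tested probes. In the supply of the flavin cofactor that both oxidases carry, 1 of 5 met it for diabetes, beside the same 11.4%. *Flad1*, the enzyme that makes flavin adenine dinucleotide, gave -0.33 (limma adjusted p = 0.354) with an interaction of -0.28. The list median was -0.16, with -0.25 for the riboflavin transporter *Slc52a3*, 0.18 for the mitochondrial carrier *Slc25a32* and, for pargyline, 0.21 for *Slc52a2*.

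None of 10 tested genes that remove hydrogen peroxide or superoxide in mitochondria and peroxisomes met an unadjusted p under 0.05 for diabetes or pargyline. *Sod2*, the mitochondrial superoxide dismutase, gave 0.20, *Gpx4* -0.29 and *Txn2* -0.16 for diabetes, *Prdx3* -0.24 for pargyline and *Txnrd2* -0.41 for the interaction, with a list median of -0.07 for diabetes. None of 8 tested known regulators of the oxidase genes met it either. The glucocorticoid receptor *Nr3c1* gave 0.13 and *Gata2* -0.12 for diabetes, and *Foxo1* 0.22 for pargyline, with a list median of 0.085 for diabetes. Of 14 listed receptors for serotonin, dopamine, histamine and trace amines only 4 were tested, and 0 met it. *Htr4*, the serotonin receptor that was well above background on 12 of 12 arrays, gave -0.04 for diabetes, -0.29 for pargyline and -0.49 for the interaction. *Hrh1* and *Htr7* had probes well above background on 0 and 1 of 12 arrays, so no folds are given.

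**Figure D4:**
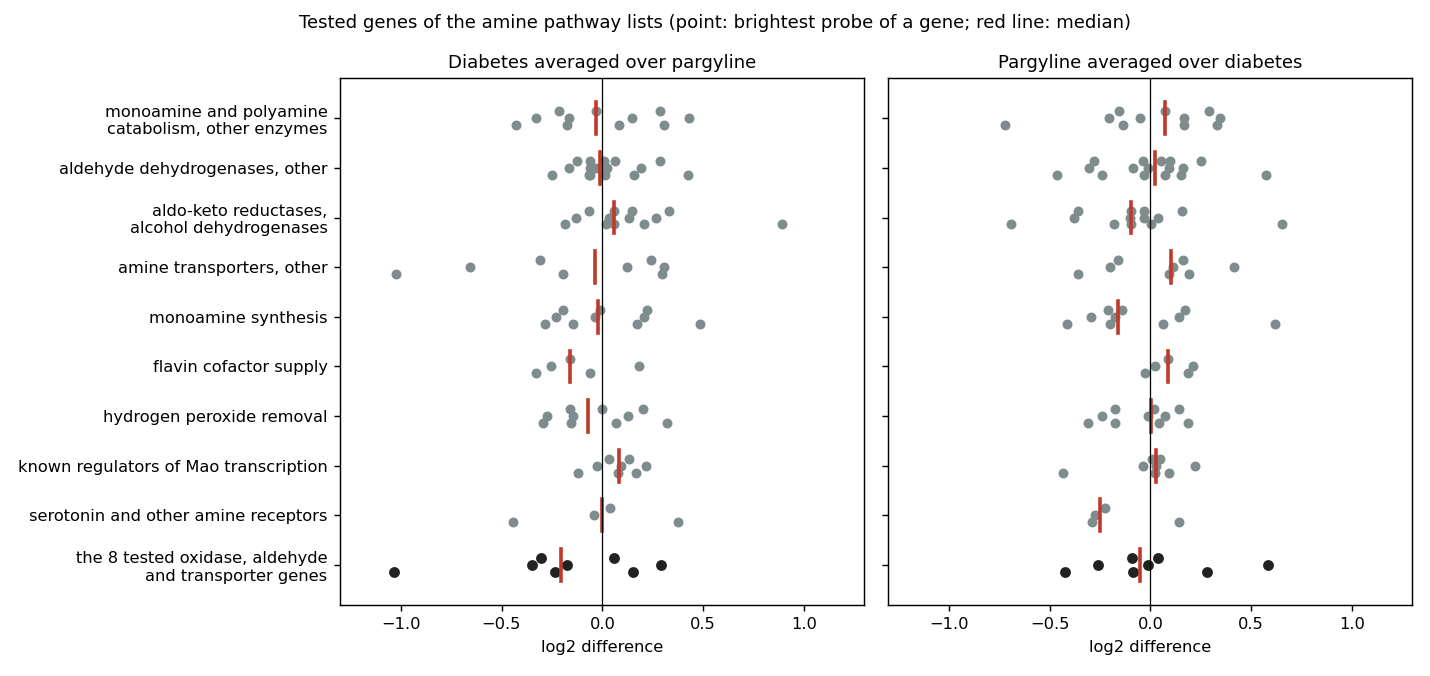
Log2 difference (x axis) of every tested gene (points) of the 9 lists and of the 8 tested oxidase, aldehyde and transporter genes (rows), with the median of each row as a red line, for diabetes on the left and pargyline on the right. The medians lie between -0.25 and 0.10. The points include genes near background, such as *Slc29a4*, the lowest point of the bottom row for diabetes, whose positions are no folds.

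Over the 12 arrays, the genes whose log2 signal ran most like that of *Maoa* were *Tlnrd1* (Pearson r = 0.93), *Parva* (r = 0.88) and *Atp6v0a2* (r = 0.87), among 20773 probes with a RefSeq symbol. Those that ran most against it were *Kcna4* (r = -0.89), *Brd8dc* (r = -0.88) and *Rexo1* (r = -0.87). For *Maob* the most alike were *Plaat3* (r = 0.95), *Tmem30a* (r = 0.94) and *Pdgfra*, a fibroblast receptor (r = 0.94). The most opposite were *Hspa8* (r = -0.96), *Etf1* (r = -0.95) and *Brd3* (r = -0.95). Highest and lowest of so many, these values are a description. All 12 points share the array design, the normalisation and the slides, and the 4 groups are among them.

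Across the processing and fitting choices tried, the diabetes difference kept its sign for *Maoa*, *Maob*, *Aldh1a1*, *Slc22a3*, *Slc29a4* and *Aoc3* and turned for *Aldh2* and *Akr1b3*. *Slc22a3* ranged from -0.41 to -0.28 over 24 alternatives, with limma adjusted p between 0.0935 and 0.53. *Maob* ranged from 0.13 to 0.45 over 24. With the arrays weighted by their quality, the measured signal of *Slc29a4*, near background, passed the threshold (limma adjusted p = 0.0286), where 348 of the 30859 tested probes passed in place of 33.

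**Figure D5:**
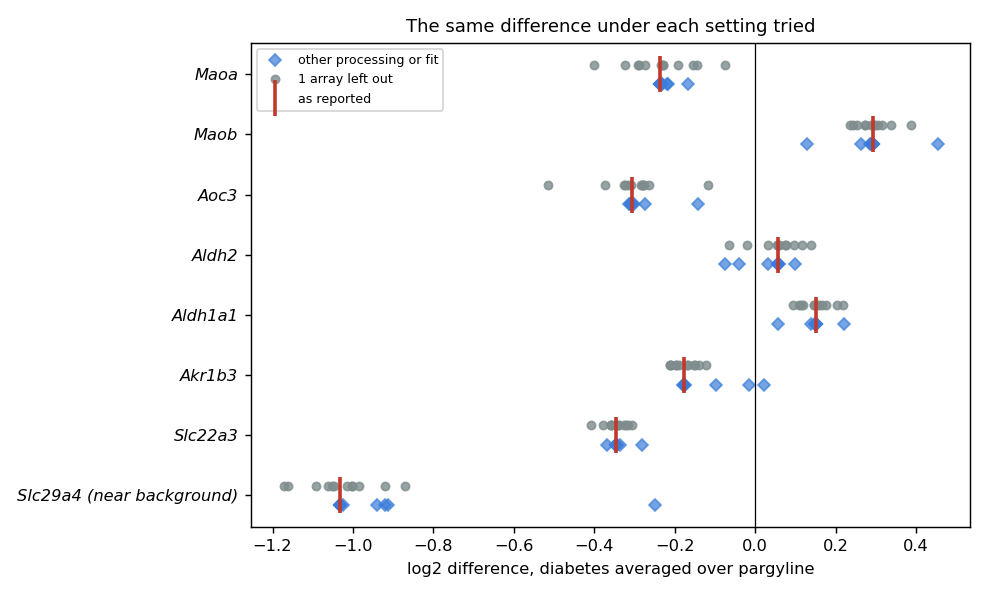
Log2 difference for diabetes averaged over pargyline (x axis) of the 8 tested genes (y axis) as reported (red bars), with 1 array left out (grey points) and under each other processing or fit (blue diamonds). *Slc22a3* stays between -0.41 and -0.28, and *Slc29a4*, well above background on 1 of 12 arrays, shows measured signal and no fold.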

How the data were processed

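Heart RNA was labelled with Cy3 and hybridised by the authors to 1-colour Agilent mouse arrays. The deposited scanner files hold each spot's intensity, background-subtracted on a linear scale by Feature Extraction 12.0.0.7 as the file headers say, and quality flags. The deposited series table holds intensity that the authors quantile normalised. Groups came from the labels. Outlier spots were set to missing, control spots left out, and log2 signal quantile normalised between the 12 arrays. Probes without positive and significant signal on 50% or more of each group's arrays were dropped, and 30859 of 56605 were tested. limma 3.58.1 in R 4.3.3 (data.table version 1.17.8) fitted 1 mean per group, with 8 residual and 2.62 prior degrees of freedom. Tests were two-sided, and the code was tested on simulated data. Figures were drawn in matplotlib 3.10.9 under Python 3.11.15, with numpy 2.4.6 and pandas 2.3.3.

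The genes, lists and markers were chosen with earlier results of these data known. From each list were named the 3 genes with the smallest p for diabetes, the 1 for pargyline, the 1 for the interaction and any past the threshold, and for each oxidase the 3 genes with the highest and 3 with the lowest r. *Smox* for pargyline was added after its value was seen. Some genes that the rule names are not reported here. Gene names followed RefSeq (GRCm38.p6), used for names and order only. The study set values without positive and significant signal to missing and used t-tests, both tried here as alternatives together with other scaling, background correction, filters, weights, blocks and leaving out each array.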

Additional observations from a re-analysis of the deposited data

How the results depend on the processing

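Under the alternatives run, 0 of the 8 tested genes passed the threshold in any contrast, except that for diabetes averaged over pargyline 1 gene, *Slc29a4*, passed with array weights. The exact permutation test named 3 genes as reported and with 75th percentile scaling and 2, without *Maob*, with probes averaged. Of 988 values of the 8 genes under alternatives 37 turned sign, and of 1054 values of the named list genes 7. *Slc29a4* gave no value with the filter on probes well above background, the slide block was fitted for diabetes averaged only, and the t-test and fits of 2 groups for pairwise contrasts only.

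With 75th percentile scaling, *Akr1b3* turned to 0.0022 in D against C and *Aldh2* to -0.023 for pargyline. With normexp, D against C became -0.015 for *Aldh2*, -0.053 for *Aldh1a1* and 0.0031 for *Akr1b3*, and D + P against C + P 0.039 for *Akr1b3*. Diabetes averaged became -0.041 for *Aldh2*, 0.021 for *Akr1b3*, 0.045 for *Txn2* and 0.079 for *Htr4*. Pargyline averaged became 0.084 for *Maoa*, -0.080 for *Aldh2* and 0.016 for *Akr1b3*. With array weights, *Maoa* became 0.038 in D against C and *Aldh2* -0.075 for diabetes averaged. With the probes of a gene averaged, D against C became -0.0010 for *Maob* and -0.10 for *Aldh2*, D + P against C + P 0.17 for *Aldh2* and 0.057 for *Akr1b3*, diabetes averaged -0.42 for *Slc25a32*, pargyline averaged -0.022 for *Aldh2* and -0.042 for *Aoc3*, and the interaction of *Txnrd2* 0.18. The causes were not tested.

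With 1 array left out, D against C ranged from -0.25 to 0.11 for *Maoa* (positive without C replicate 2 or D replicate 1) and from -0.072 to 0.33 for *Aldh2* (negative without D replicate 1). D + P against C + P ranged from -0.21 to 0.064 for *Aldh2* (positive without C + P replicate 2). Diabetes averaged ranged from -0.065 to 0.14 for *Aldh2* and -0.16 to 0.065 for *Htr4*. Pargyline averaged ranged from -0.25 to 0.076 for *Maoa*, -0.046 to 0.16 for *Aldh2* and -0.047 to 0.040 for *Akr1b3*. C + P against C of *Slc22a3* ranged from -0.20 to 0.0010. For 2 probes near background, whose values are background signal and no folds, the sign also turned, to -0.086 for the interaction of *Slc29a4* and -0.0080 for diabetes averaged of *Hrh1*, both with normexp, and within -0.072 to 0.53 for that interaction with 1 array left out.

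Replicate numbers did not pair the arrays: deviations from the group means correlated between -0.20 and 0.20 within a number. With the number as a replicate block, the tested probes past the threshold for diabetes averaged dropped from 33 to 4 (over all alternatives 3 to 348), and 0 of the 8 genes passed in any contrast. The methods' t-test passed 0 of the 8 genes after Benjamini-Hochberg in all 4 pairwise contrasts. At its unadjusted p under 0.05, D against C had 2 of the 8 genes, beside 3533 of the 30859 tested probes. D + P against C + P had 2 genes beside 2022 probes. C + P against C had 2 genes beside 2374 probes, and D + P against D had 1 gene beside 2574. With 3 arrays per group and signals near background for *Slc29a4*, *Maoa* and *Slc6a4*, small differences were not measurable.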
